A study of Mus musculus with 27 samples.

Results

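The genes described are 9 members of the complement system, *C1qa*, *C1qb*, *C1qc*, *C2*, *C4b*, *C3*, *C6*, *Cfb* and *Cfd*, picked by symbol from a table of 36333 genes measured by RNA-seq in the liver, omental adipose tissue and skeletal muscle of *Mlx*KO mice. They were chosen as a family, by symbol, and each of the 9 symbols matched 1 row. The study asked whether body-wide removal of Mlx has the lifelong effects seen when Myc is removed. Mlx is the dimerization partner of the glucose-sensing MondoA and ChREBP factors within the extended Myc network. The study compared *Mlx*KO with WT tissues and, among other comparisons, young with old animals. The labels used here form 6 groups, 4 samples per tissue at 5 months and 5 samples per tissue at 20 months, 27 in all.

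All mice shared 1 genotype and 1 treatment. They came from a cross, on a B6.129 background, of Gt(ROSA)26Sortm1(cre/ERT2)Tyj/J with Mlx Flox/Flox mice, in which a tamoxifen-activated Cre is driven by the ubiquitous ROSA26 promoter, so that *Mlx* was removed after birth and from many cell types at once. Tamoxifen was injected i.p. in corn oil at 75 mg/kg on 5 consecutive days, at weaning and once a mouse weighed at least 15 g. The mice were male. At 5 months the same 4 mice gave all 3 tissues, and at 20 months the samples carry no shared mouse number. Sample names of the older group begin with X18, whereas the annotation gives 20 months, which is the age used here. The paper's supplement lists mice with the same closing digits at the age in the names, so the exact age is uncertain. Tissues of WT mice, which would show what the deletion did, were not analysed here, and every value below is from *Mlx*KO tissue.

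Complement is a cascade of plasma proteases that tags and lyses targets. In the classical pathway the recognition protein C1q, a bundle of chains from *C1qa*, *C1qb* and *C1qc*, binds immune complexes, and the cleavage of C4 and C2 then forms an enzyme that splits the central component C3; in the alternative pathway factor B (*Cfb*) is cut by factor D (*Cfd*, also called adipsin) to form a C3-splitting enzyme of its own, and C6 belongs to the terminal complex that inserts into membranes. Hepatocytes make most circulating components, macrophages are the main source of C1q, and adipocytes are the main source of factor D.

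The 9 genes lie on 4 chromosomes (coordinates in GRCm38.p6, matched by gene identifier). *C1qb*, *C1qc* and *C1qa* follow each other on the minus strand of chromosome 4, with *C1qb* at chr4:136880126-136886200, *C1qc* at chr4:136889801-136892936 and *C1qa* at chr4:136895916-136898844, so that 3600 and 2979 bases separate them. On the minus strand of chromosome 17 stand *C4b* (chr17:34728139-34743902), *Cfb* (chr17:34856374-34862514), *C2* (chr17:34862602-34882100) and, farther away, *C3* (chr17:57203967-57228136). Only 87 bases lie between *Cfb* and *C2*. *C6* is on the plus strand of chromosome 15 (chr15:4727067-4804045), and *Cfd* is on the plus strand of chromosome 10 (chr10:79890853-79892655). Some reads of 3 members may be shared with other genes. An annotated readthrough gene, *Gm20547*, which is not analysed here, overlaps *Cfb* and *C2* and holds 81.4% and 58% of their 50-base exon words, and *C4a* holds 35.2% of those of *C4b*. *C4a* itself averaged 9.52 in the liver at 5 months against 1696 for *C4b*.

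The promoter is the stretch around a gene's start where transcription begins, and 4 such windows are shown because their genes had the clearest patterns below: the neighbours *C1qb* and *C1qc*, whose levels deviated most alike, *C3*, whose level was highest in the liver, and *Cfd*, whose level was highest in adipose tissue. Each run holds 250 bases before the RefSeq start and 50 after it, 5′ to 3′ on the gene's own strand (GRCm38.p6, chr4:136886151-136886450, chr4:136892865-136893164, chr17:57228087-57228386 and chr10:79890603-79890902, in the order printed), and capitals mark the matches to the motifs searched.
C1qb: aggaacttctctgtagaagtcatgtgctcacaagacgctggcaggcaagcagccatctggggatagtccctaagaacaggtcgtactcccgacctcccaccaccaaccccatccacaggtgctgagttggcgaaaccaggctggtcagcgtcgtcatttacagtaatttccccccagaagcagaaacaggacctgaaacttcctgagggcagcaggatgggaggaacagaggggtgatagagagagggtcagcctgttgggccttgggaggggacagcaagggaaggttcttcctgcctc
C1qc: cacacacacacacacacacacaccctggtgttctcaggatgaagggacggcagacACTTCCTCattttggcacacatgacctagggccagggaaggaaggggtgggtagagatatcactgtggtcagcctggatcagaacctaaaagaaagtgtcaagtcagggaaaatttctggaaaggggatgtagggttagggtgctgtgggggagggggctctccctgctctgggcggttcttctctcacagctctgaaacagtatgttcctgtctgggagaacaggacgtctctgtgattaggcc
C3: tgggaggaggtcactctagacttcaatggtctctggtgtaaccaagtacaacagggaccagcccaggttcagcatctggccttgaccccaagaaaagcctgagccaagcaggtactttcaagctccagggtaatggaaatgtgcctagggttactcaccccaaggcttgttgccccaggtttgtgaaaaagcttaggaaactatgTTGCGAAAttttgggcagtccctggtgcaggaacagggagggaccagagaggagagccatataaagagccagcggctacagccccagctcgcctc
Cfd: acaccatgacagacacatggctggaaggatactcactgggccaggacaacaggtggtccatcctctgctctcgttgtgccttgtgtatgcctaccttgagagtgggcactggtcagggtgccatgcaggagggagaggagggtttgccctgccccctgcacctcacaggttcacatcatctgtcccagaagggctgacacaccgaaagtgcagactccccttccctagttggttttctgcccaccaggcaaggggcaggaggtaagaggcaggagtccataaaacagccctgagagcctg

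Windows were listed for 5 members, these 4 and *C6*, and each was searched on both strands for 5 motifs. The *C1qc* window held a PU.1 motif (GAGGAAGT, read on the opposite strand as ACTTCCTC), the site of a macrophage lineage factor, at positions -195 to -188 from the start, and 3.2% of the 32851 windows of all genes held one. The *C3* window held a C/EBP motif (TTGCNNAA), the site of a factor family of hepatocytes and adipocytes, at positions -45 to -38, beside 10.8% of all windows. No match to the E box CACGTG that Mlx heterodimers bind (7.15% of all windows), to the ISRE GAAANNGAA (8.56%) or to the GAS element TTCNNNGAA (8.3%) was found in any of the 5 windows, which speaks only of these letters in these bases.

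Levels are given as the deposited normalized value, which is CPM divided by a factor of each sample. Each sample held between 14384695 and 25673919 reads on genes, and a count of 0 allows up to 3 reads, a value of 0.0703 to 0.242 depending on the sample. The tissue labels were borne out by their defining genes: *Alb* was 26970.1 to 125324 in liver and at most 222 elsewhere, *Adipoq* 532 to 1182 in adipose tissue, and *Acta1* at least 25482 in muscle. Some libraries held transcripts of another tissue. The 6 hepatocyte markers summed to 344 in muscle sample X5S5238 and to 64.4 in X18S58, against 0.143 to 37.6 in the other muscle samples, and to 234 and 142 in adipose samples X18F36 and X18F38 against 4.67 to 60.7 in the others, so age changes are also given, where that matters, without the highest library of each of these 4 groups (X5F5238 at 60.7, X18F36, X5S5238 and X18S58) and without both X18F36 and X18F38. Adipose samples also held muscle fibre transcripts, which are given beside *C6*. *Mlx* itself, counted over the whole gene, was between 18.8 and 32.4 in liver, between 8.19 and 13.9 in adipose tissue and between 7.04 and 11.6 in muscle, which cannot show the deletion without WT samples. By quantitative PCR against WT, the paper reports more *Mlx* transcript left in skeletal muscle than in liver and adipose tissue. No pair of samples held the same values.

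The 9 genes were a visible part of the RNA of liver and adipose tissue and a minor part of that of muscle. They took 0.911% to 1.05% of all reads in liver at 5 months and 0.733% to 1.28% at 20 months. In adipose tissue their share was 0.875% to 1.01% at 5 months and 0.62% to 0.757% at 20 months, without overlap. Muscle gave them 0.0229% to 0.0375% of its reads at 5 months and 0.0107% to 0.0246% at 20 months. *C3* alone accounted for 0.502% to 0.891% of the reads of the 20-month livers, and *Cfd* alone for 0.42% to 0.571% of those of the 5-month adipose samples.

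**Figure D1:**
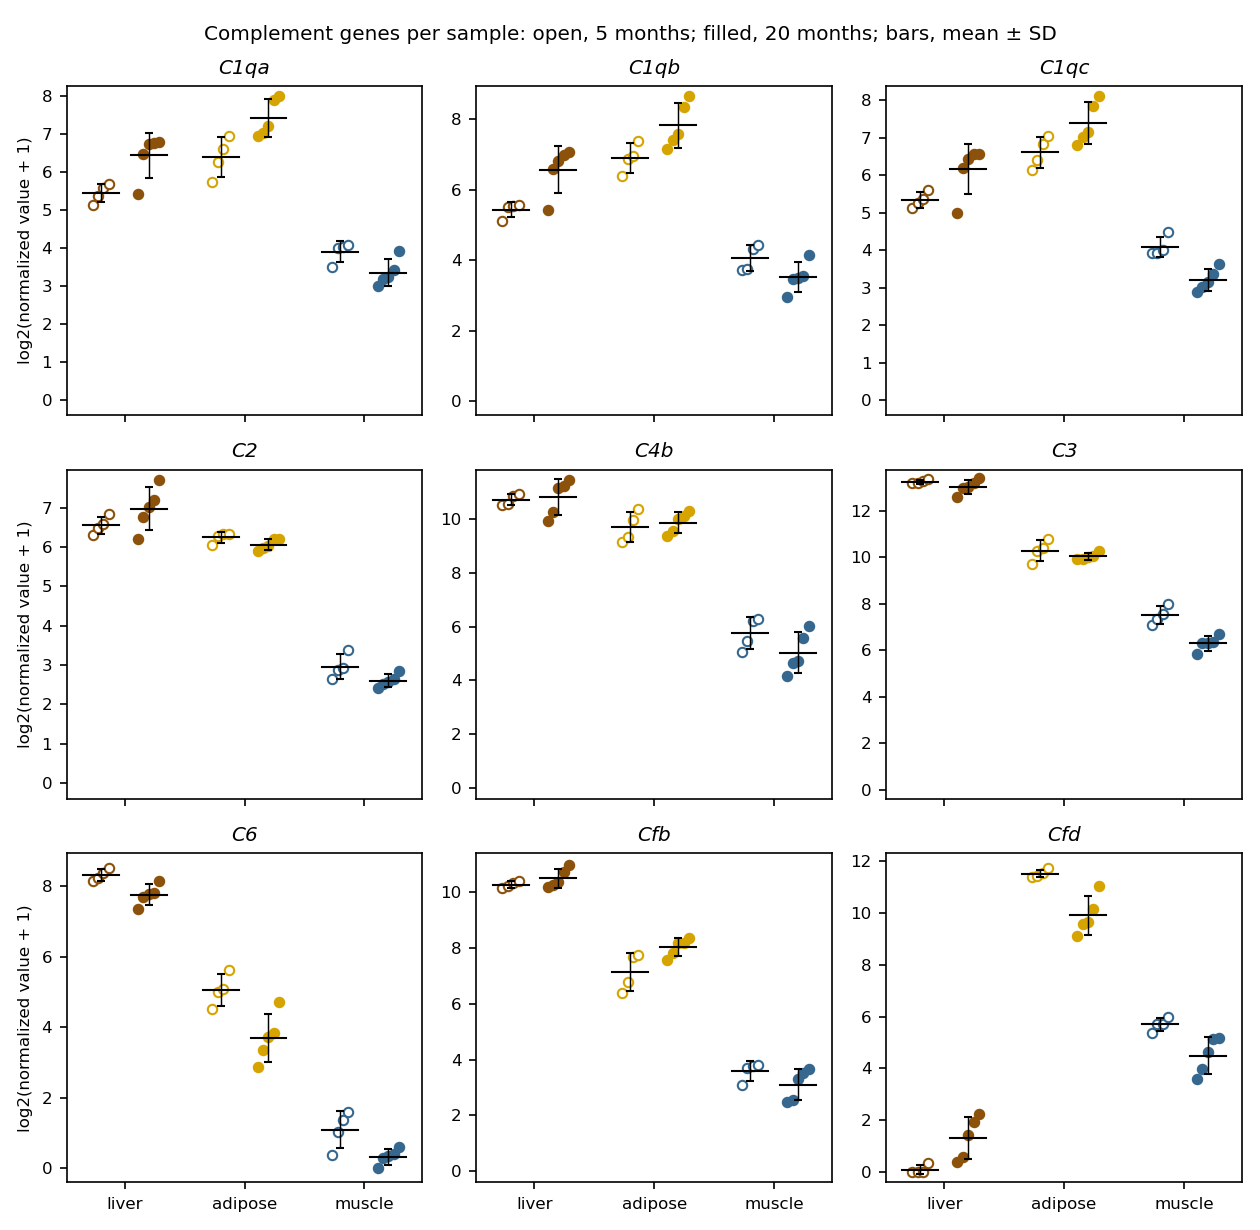
log2(normalized value + 1) of each complement gene (y axis) in every sample of liver, omental adipose tissue and skeletal muscle (x axis), open circles at 5 months (n = 4) and filled circles at 20 months (n = 5), with the mean and SD of the log2 values. *C3*, *C4b*, *C6* and *Cfb* are highest in liver, *C1qa*, *C1qb*, *C1qc* and *Cfd* in adipose tissue, and *Cfd* is near 0 in liver.

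Which tissue held most of a component differed between the members. Each pair of tissues was compared at each age with limma on log2(value + 1) in 1 fit of all 27 samples, at an adjusted p under 0.05. Of the 9 genes, 8 differed between liver and adipose tissue at 5 months and all 9 in each of the other 5 comparisons. Tissue differences were the rule across the genome: at 5 months 76.4% of 15572 genes differed for the pair of liver and adipose tissue, 72.9% for liver and muscle and 72.8% for adipose tissue and muscle, and 74.5%, 77.2% and 76% did at 20 months, so the count of members does not set them apart.

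*C3*, the component on which all pathways converge, was 9363, 9422, 10036 and 10515 in the 5-month livers. It was 833, 1234, 1353 and 1752 in adipose tissue and 137, 161, 190.4 and 255 in muscle at that age. No tissue overlapped another. The liver mean was 7.61 times that of adipose tissue and 52.9 times that of muscle, and at 20 months 8.12 and 109 times. Counted per kilobase of all annotated exons, *C3* led the other 8 members in liver at both ages, with 1912 ± 106 (SD, n = 4) at 5 months.

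*Cfb*, the catalytic subunit of the alternative C3-splitting enzyme, followed the same order. Its mean was 1238 ± 95.1 in liver, 152 ± 66.4 in adipose tissue and 11.3 ± 2.6 in muscle at 5 months (SD, n = 4). The log2 difference of liver and adipose tissue was 3.12 ± 0.28 (SE, limma, adjusted p = 2.27e-10) at 5 months and 2.47 ± 0.25 (adjusted p = 2.11e-09) at 20 months.

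*C6*, a terminal component, was nearly a liver transcript. It was 281 to 366 in the 5-month livers, 21.9 to 48.2 in adipose tissue and 0.307, 1.05, 1.6 and 2.04 in muscle. The highest of the muscle values belonged to X5S5238, the library with the highest hepatocyte marker sum. Liver exceeded adipose tissue by 3.27 ± 0.29 on the log2 scale at 5 months (limma, adjusted p = 1.36e-10) and by 4.06 ± 0.26 at 20 months (adjusted p = 1.79e-13).

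*C4b* and *C2*, which the classical C3-splitting enzyme is made from, stood closer in liver and adipose tissue. *C4b* was 1469, 1494, 1854 and 1968 in the 5-month livers against 559, 641, 999.7 and 1309 in adipose tissue, without overlap, a log2 difference of 1.02 ± 0.37 (limma, adjusted p = 0.0159) that was 0.83 without X5F5001 (adjusted p = 0.0619). At 20 months the 5 livers spread from 979.6 to 2828 and overlapped the adipose samples (661 to 1248), with a difference of 0.94 ± 0.33 (adjusted p = 0.0139) that was 0.82 without X18F36 and X18F38 (adjusted p = 0.0648). *C2* was 78.1, 88, 94.9 and 113 in liver and 65.2, 77.1, 79 and 79.7 in adipose tissue at 5 months. Those ranges overlapped, and the difference of 0.30 (95% interval -0.11 to 0.72) missed the threshold (limma, adjusted p = 0.177), whereas at 20 months it was 0.92 ± 0.18 (adjusted p = 6.30e-05).

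The scale between tissues rests on the normalization. When reads were rescaled to the total without the 20 most abundant genes, the median of all genes between liver and adipose tissue moved from -0.08 to -0.87 at 5 months and from -0.06 to -0.67 at 20 months, and that between adipose tissue and muscle from 0.19 to 0.76 and from 0.18 to 0.62, so folds between these tissues carry that uncertainty. Under that scale *C2* turned to -0.68 at 5 months (limma, adjusted p = 0.00874) and was 0.17 at 20 months (adjusted p = 0.447), and *C4b* was 0.03 (adjusted p = 0.933) and 0.18 (adjusted p = 0.593). *C3*, *Cfb* and *C6* stayed above adipose tissue, and the C1q genes and *Cfd* stayed below it, past the threshold at both ages, and all 9 members stayed above muscle in adipose tissue.

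*C1qa*, *C1qb* and *C1qc* were ordered adipose tissue, liver, muscle at both ages, with no overlap between neighbours. *C1qb* was 82.4, 115, 123 and 167 in adipose tissue at 5 months, 33.8, 44.3, 45 and 46.8 in liver and 12.2, 12.5, 19 and 20.6 in muscle. Adipose tissue exceeded liver by 1.47 ± 0.33 on the log2 scale (limma, adjusted p = 0.000262) and muscle by 2.84 ± 0.33 (adjusted p = 2.58e-08). At 20 months the mean in adipose tissue was 22.6 times that in muscle, against 7.59 times at 5 months.

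*Cfd* had the steepest tissue pattern. Its protease was encoded by 2715, 2729, 2953 and 3375 in the 5-month adipose samples, by 40.2, 51.4, 51.9 and 63 in muscle, and by 0, 0, 0 and 0.285 in liver. The livers held 4 *Cfd* reads in all, in 1 sample, where the 3-read level was 0.191 to 0.24. The adipose mean was 57 times the muscle mean at 5 months and 45.5 times at 20 months. In level per kilobase *Cfd* ranked first of the 9 in adipose tissue and in muscle at both ages, with 3192 ± 334 in adipose tissue at 5 months, and last in liver.

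**Figure D2:**
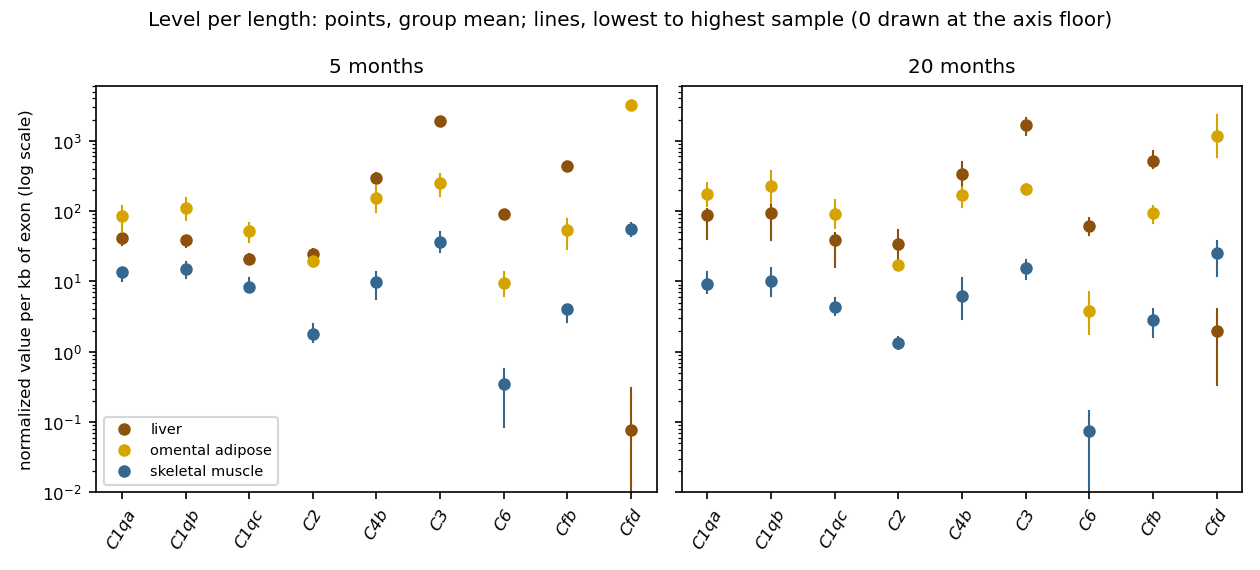
Normalized value per kilobase of exon (y axis, log scale) of the 9 complement genes (x axis) at 5 months (left) and 20 months (right), where points are group means and lines run from the lowest to the highest sample. *C3* leads in liver at 1912 and 1675, and *Cfd* leads in adipose tissue at 3192 and 1167 and in muscle at 56 and 25.7.

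The 20-month samples were then compared with the 5-month samples within each tissue (limma on log2(value + 1), leaving out genes that reached 1 in fewer than 4 samples). In liver 3 of 8 tested members passed an adjusted p under 0.05, beside 19.8% of 12654 genes. In adipose tissue 3 of 9 did, beside 19.1% of 14005 genes, and in muscle 3 of 8, beside 19.3% of 12720 genes. By direction, 2 rose and 1 fell in liver (10% and 9.79% of all genes), 1 rose and 2 fell in adipose tissue (9.75% and 9.35%), and 0 rose and 3 fell in muscle (9.13% and 10.1%), where all 8 changes were below 0 and 0 rose at an unadjusted p under 0.05, with edgeR or with DESeq2. The median log2 change of the tested members was 0.33 in liver, 0.17 in adipose tissue and -0.64 in muscle, beside 0.00106, 0.00718 and 0.0168 over all genes tested. With 8 or 9 members a share moves by much with 1 gene, and nothing is read from the counts alone. The p-values measure the spread between these mice.

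**Figure D3:**
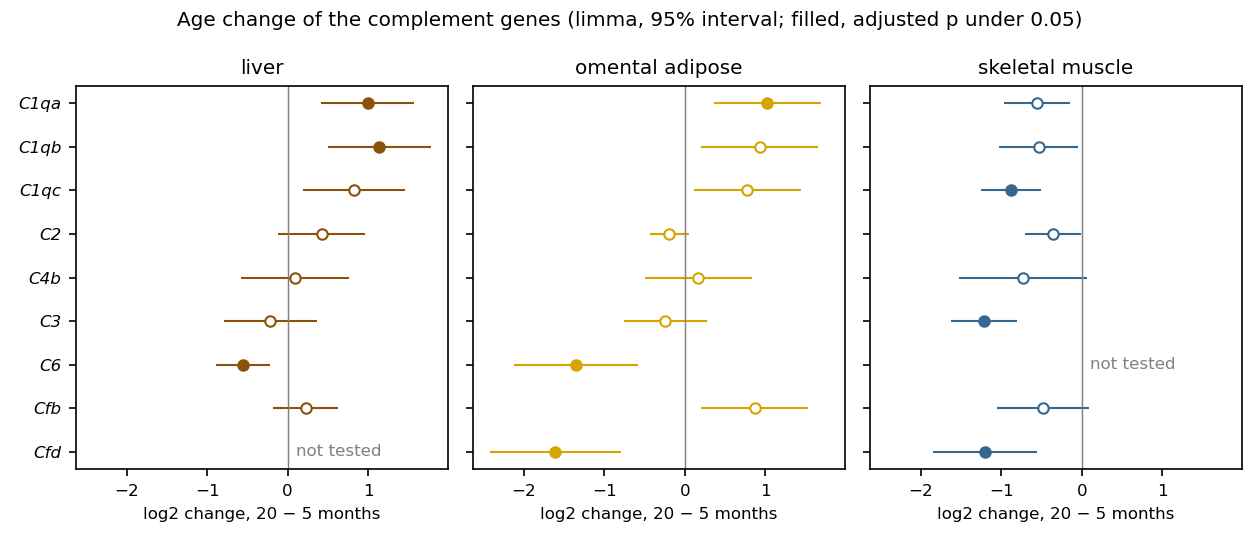
log2 change from 5 to 20 months (x axis, limma) with its 95% interval for each complement gene (y axis) in liver, omental adipose tissue and skeletal muscle, filled where the adjusted p was under 0.05. The C1q genes lie above 0 in liver and adipose tissue and below 0 in muscle, and *Cfd* lies at -1.61 in adipose tissue and -1.20 in muscle.

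Of the C1q genes, *C1qa* and *C1qb* rose with age in liver and *C1qa* in adipose tissue, and the other 3 changes in these tissues were above 0 and did not pass. *C1qa* was 34.4, 40.2, 47.2 and 50.8 in the 5-month livers and 41.6, 88.5, 107, 108 and 110.0 at 20 months. All but 1 of the older livers, X18L16, lay above every younger one. The change was 0.995 ± 0.263 (limma, adjusted p = 0.0264). *C1qb* was 41.5, 94.6, 112, 127 and 133 at 20 months, a rise of 1.14 ± 0.29 (adjusted p = 0.0238), with X18L16 again within the younger range. *C1qc* was 31.1 in X18L16 and 72.9, 86.3, 94.2 and 94.6 in the other 4 against 33.9 to 47.8 at 5 months, and its change of 0.82 ± 0.29 missed the threshold (adjusted p = 0.0636).

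In adipose tissue *C1qa* was 52.5, 76.6, 97 and 123 at 5 months and 124, 131, 147, 236 and 259 at 20 months. The ages did not overlap, although the nearest samples lay side by side, and the rise was 1.03 ± 0.30 (limma, adjusted p = 0.0411). *C1qb* was 143, 169, 190.0, 325 and 403 at 20 months, a change of 0.93 ± 0.32 (adjusted p = 0.0665), and *C1qc* changed by 0.78 ± 0.30 (adjusted p = 0.0839), so neither passed. Without X5F5238 and X18F36, the adipose libraries with the highest hepatocyte marker sum of their age, the changes were 1.33, 1.27 and 1.08 for *C1qa*, *C1qb* and *C1qc*, and all 3 passed (limma, adjusted p = 0.0153, 0.0231 and 0.0307). X5F5238 was also the highest younger and X18F36 the lowest older library in all 3 genes, so leaving both out had to raise the changes. Without X18F36 and X18F38, the older samples above every younger one in that sum, they were 0.98, 0.88 and 0.74, and none of the 3 passed (adjusted p = 0.071, 0.0769 and 0.101).

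In muscle *C1qc* fell, and the changes of *C1qa* and *C1qb* were below 0 and did not pass. *C1qc* was 14.1, 14.3, 15.1 and 21.4 at 5 months and 6.41, 7.18, 7.88, 9.26 and 11.3 at 20 months, without overlap, and fell by 0.88 ± 0.17 (limma, adjusted p = 0.0076). *C1qa* changed by -0.55 ± 0.19 (adjusted p = 0.0582) and *C1qb* by -0.54 ± 0.22 (adjusted p = 0.107). For each of them 4 of the 5 older muscles lay below every younger one, and the exception was X18S59.

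The age changes of the C1q genes differed between muscle and the other tissues when the difference itself was tested (limma, difference of the age changes, all 27 samples). Liver exceeded muscle by 1.55 ± 0.39 for *C1qa*, 1.68 ± 0.44 for *C1qb* and 1.70 ± 0.40 for *C1qc* (adjusted p = 0.00833, 0.0107 and 0.00506). Adipose tissue exceeded muscle by 1.58, 1.47 and 1.66 (adjusted p = 0.00896, 0.0263 and 0.00758). Between liver and adipose tissue the differences were -0.03 (95% interval -0.83 to 0.77), 0.21 (-0.70 to 1.11) and 0.04 (-0.77 to 0.86), none of which passed and whose intervals are wide.

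Of the summed level per kilobase of the 3 genes, *C1qc* made up 17.1% to 21.5% in every liver, 18.4% to 22.3% in every adipose sample and 16.9% to 25.9% in every muscle sample. That low share depends on the length used, all annotated exons, which was 1931 bases for *C1qc*, 1040 for *C1qa* and 1088 for *C1qb*. The longest coding transcripts held 1154, 991 and 1039 distinct 50-base words. Before division by length, *C1qa*, *C1qb* and *C1qc* averaged 43.1, 42.5 and 39.8 in the 5-month livers. The share of *C1qa* was 39.2% to 42.5% in the 5-month livers and 31.1% to 35.2% in the 5-month adipose samples, without overlap, and the ratio of the values of *C1qb* to *C1qa* was 0.887 to 1.10 and 1.27 to 1.57. The deviations of *C1qb* and *C1qc* from their group means correlated at r = 0.96 over the 27 samples, and those of *C1qa* with the other two at 0.92 and 0.93. These are descriptions over samples that share a normalization, and in bulk tissue fewer cells of a type and less RNA per cell cannot be told apart.

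Some macrophage markers changed as well. The 8 markers summed to 186 to 332 in the 5-month livers and 206 to 639 at 20 months, to 796 to 1540.4 and 941 to 4917 in adipose tissue, and to 130.2 to 241 and 80.2 to 145 in muscle. *Fcgr1* and *Lyz2* rose in liver, *Adgre1* rose while *Cd163* and *Mertk* fell in adipose tissue, and *Cd68*, *Csf1r*, *Mrc1* and *Cd163* fell in muscle, of 8, 8 and 7 markers tested. X18L16, the older liver with low C1q, had the lowest macrophage sum of its group (206). The ratio of the summed C1q genes to the summed markers had a median of 0.532 at 5 and 0.613 at 20 months in liver, 0.276 and 0.252 in adipose tissue and 0.246 and 0.291 in muscle. The Kupffer cell marker *Clec4f* was 65.3 to 176 in liver and at most 0.704 elsewhere. The part of macrophage number in the C1q changes was not tested.

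**Figure D4:**
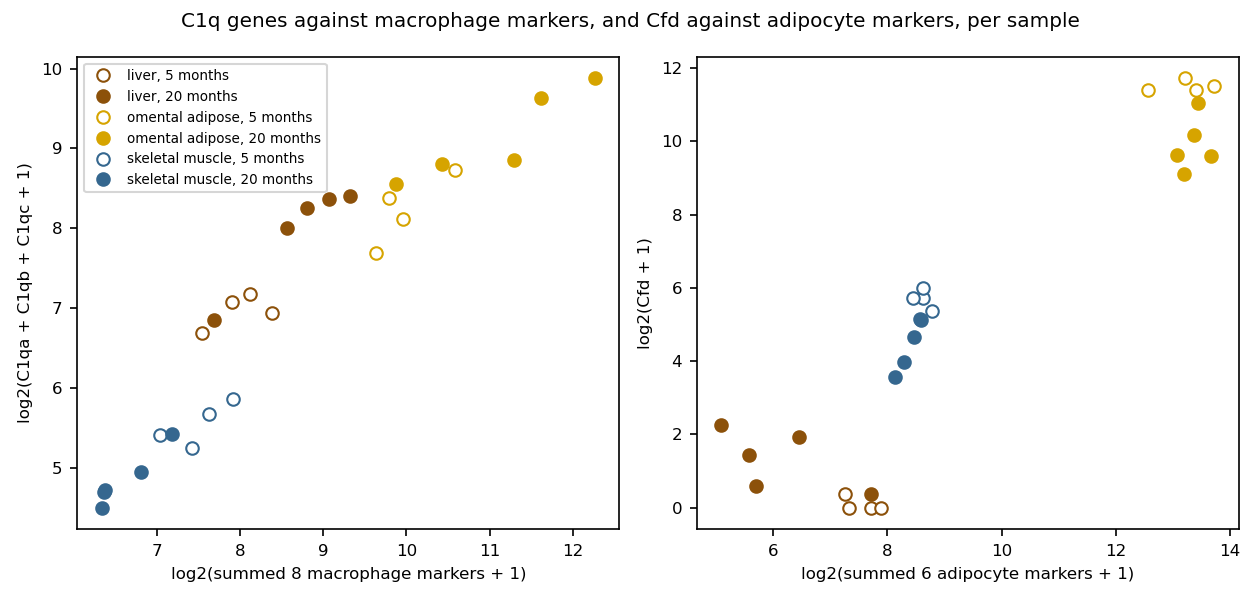
Left, log2 of the summed *C1qa*, *C1qb* and *C1qc* values + 1 (y axis) against log2 of the 8 summed macrophage markers + 1 (x axis), and right, log2(*Cfd* + 1) against log2 of the 6 summed adipocyte markers + 1, 1 point per sample, open at 5 and filled at 20 months. C1q rises with the macrophage sum in each tissue, whereas the adipose samples spread in *Cfd* from 548 to 3375 over adipocyte sums of 6057 to 13587.

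*Cfd* was lower with age in both tissues that held it. In adipose tissue it was 2715, 2729, 2953 and 3375 at 5 months and 548, 771, 794, 1148 and 2121 at 20 months, without overlap. The change was -1.61 ± 0.36 (limma, adjusted p = 0.024), and the younger mean was 2.73 times the older. X18F36, the highest of the older samples, also had the lowest macrophage sum of its group (941) and the highest hepatocyte sum. Without it and X5F5238, the lowest of the younger samples, the fall had to grow, and the change was -1.93 (limma, adjusted p = 0.00561). The adipose call held in 12 of 13 alternative settings and was lost with no filter on low values (limma, adjusted p = 0.095). In muscle *Cfd* was 40.2, 51.4, 51.9 and 63 at 5 months and 10.9, 14.8, 24.1, 33.8 and 34.7 at 20 months, again without overlap, a fall of 1.20 ± 0.30 (adjusted p = 0.0194).

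None of the 6 adipocyte markers passed in either direction in adipose tissue or in muscle (limma), and at an unadjusted p under 0.05 there were 2 higher and 1 lower in adipose tissue and 3 lower in muscle, against 0 with edgeR and, with DESeq2, 1 higher and 1 lower in adipose tissue. They summed to 6057 to 13587 at 5 months and 8686 to 12986 at 20 months in adipose tissue, and to 346 to 440.0 and 281 to 384 in muscle. The part of adipocyte number in the *Cfd* changes was not tested.

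In liver *Cfd* was 0.305, 0.501, 1.7, 2.84 and 3.77 at 20 months, above every 5-month liver, and was too low to be tested. Without the filter on low values its change was 1.23 (limma, adjusted p = 0.0624). Of the 6 adipocyte markers, *Adipoq* was at 0 in all 5 of these livers and *Lep* and *Retn* in all 9 livers, while *Plin1* was 0 to 0.102 in these 5. All 6 summed to 152 to 236 in the 5-month livers and 33 to 209 at 20 months. Of the 2 that could be tested in liver, 1, *Cidec*, fell and 0 rose (limma). The 5 neutrophil markers summed to 2.8 to 5.41 in the 5-month livers and 4.16 to 23.5 at 20 months, and X18L18, X18L19 and X18L74 were highest in both that sum and *Cfd*. Only 2 of these 5 could be tested in liver, and 0 passed in either direction (limma). At an unadjusted p under 0.05 there were 2 higher, against 1 with edgeR and 2 with DESeq2. The part of neutrophils or adipocytes in the liver values of *Cfd* was not tested. Because *Cfd* was not tested with age in liver, no difference of its age change between liver and another tissue is drawn. Between adipose tissue and muscle the difference was -0.41 (95% interval -1.46 to 0.65).

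*C6* was lower with age in liver and adipose tissue. In liver it was 281, 303, 333 and 366 at 5 months and 163, 208, 221, 226 and 286 at 20 months. Only X18L16 overlapped the younger livers, and the fall was 0.55 ± 0.15 (limma, adjusted p = 0.0312). The adipose samples had 21.9, 30.9, 33.2 and 48.2 at 5 months and 6.33, 9.28, 12.4, 13.3 and 25.5 at 20 months, with X18F37 in the younger range, a fall of 1.35 ± 0.35 at an adjusted p of 0.0316. Without X5F5238 and X18F36 it was -1.19 (adjusted p = 0.0527), and without X18F36 and X18F38 it was -1.11 (adjusted p = 0.0717). The 6 muscle fibre markers summed to 329 to 860.0 in adipose tissue at 5 months and to 102 to 577 at 20 months, and X18F37 held the 577. None of them passed in either direction (limma, and 0 also at an unadjusted p under 0.05, with edgeR and with DESeq2). In liver the hepatocyte marker sum was 104594 to 162324 at 5 months and 46104 to 100325 at 20 months, without overlap, and X18L74 was lowest in it and in *C6*. X18L18 was the highest older liver in that sum, with a *C6* of 208. Most of the sum was *Alb*, which averaged 96938 and 55182, whereas *Apoa1* averaged 11482 and 11223. Of the 6 hepatocyte markers 1, *Tat*, fell and 0 rose in liver (limma). The part of muscle fibres or hepatocytes in the *C6* changes was not tested. The liver call also ended with no filter, when rescaled without the 20 most abundant genes, which moved the median of all genes from 0.000844 to 0.16, and with all 27 samples in 1 fit (changes of -0.55, -0.38 and -0.55, limma, adjusted p = 0.0518, 0.0517 and 0.154). In muscle *C6* was 0, 0.217, 0.266, 0.326 and 0.514 at 20 months and was not tested, and without the filter its change was -0.77 (adjusted p = 0.0643).

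*C3* fell in muscle and did not pass the test in the other tissues. It was 137, 161, 190.4 and 255 in the 5-month muscles and 56, 77.6, 78, 80.3 and 103 at 20 months, without overlap. The younger mean was 2.36 times the older, and the log2 change was -1.21 ± 0.19 (limma, adjusted p = 0.00315). X5S5238, with the most hepatocyte transcripts, had the lowest *C3* of the younger muscles, and without it and X18S58 the change was -1.35 (adjusted p = 0.00831). In liver the change was -0.21 (95% interval -0.79 to 0.37) and in adipose tissue -0.24 (-0.76 to 0.27), and neither passed. The age change in liver exceeded that in muscle by 0.999 ± 0.282 (limma, adjusted p = 0.0163) and that in adipose tissue did so by 0.97 ± 0.28 (adjusted p = 0.0225).

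Fibroblast markers also moved in muscle. The 5 genes of that list summed to 869 to 1226 at 5 months and 465 to 810.3 at 20 months, and *Dcn*, *Pdgfra*, *Col1a1* and *Col3a1* fell. Some macrophage markers also fell in muscle, as given above. So did *Hba-a1*, *Hba-a2* and *Alas2* of the red cell list and *Pecam1* of the endothelial list. Fibroblasts are among the local producers of complement, and the part of any of these cells in the fall of *C3* was not tested.

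*Cfb* was 82.3, 109.6, 203 and 215 in adipose tissue at 5 months and 189, 225, 288, 289.9 and 329 at 20 months. All but X18F36 of the older samples lay above the younger ones. The change of 0.87 ± 0.30 missed the threshold (limma, adjusted p = 0.0636), and it was 1.19 without X5F5238 and X18F36 (adjusted p = 0.0213) and 0.97 without X18F36 and X18F38 (adjusted p = 0.0925). X5F5238 was the highest younger and X18F36 the lowest older library in *Cfb*, so leaving both out had to raise the change. In liver it was 0.22 (95% interval -0.18 to 0.63) and in muscle -0.49 (-1.06 to 0.08). The age change in adipose tissue exceeded that in muscle by 1.36 ± 0.38 (limma, adjusted p = 0.0181).

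*C4b* and *C2* did not pass with age in any tissue, although with sample weights *C2* passed in liver and adipose tissue and *C4b* in adipose tissue (limma, adjusted p = 0.0486, 0.0407 and 0.0343). *C4b* changed by 0.09 in liver (95% interval -0.58 to 0.76), by 0.17 in adipose tissue (-0.50 to 0.84) and by -0.73 in muscle (-1.53 to 0.06). Among the older livers *C4b* was 979.6 in X18L74 and 1222 in X18L16 against 2263, 2376 and 2828 in the other 3, so the spread within the group was larger than the difference between ages. *C2* changed by 0.43 in liver (-0.11 to 0.97), by -0.19 in adipose tissue (-0.43 to 0.05) and by -0.36 in muscle (-0.71 to -0.01, limma, adjusted p = 0.129). X18L74 was the highest older liver in *C2* (208), as it was in *Cfb* (2011) and *C1qb*, and the lowest in *C6* (163). The age change of *C2* in liver exceeded that in muscle by 0.78 ± 0.27 (limma, adjusted p = 0.0462), a call that held in 5 of 18 fits when single libraries were left out.

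In total, of the members tested with age in both tissues, the age changes of 0 of 8 differed between liver and adipose tissue (limma, 2 at an unadjusted p under 0.05, 0 with edgeR and 0 with DESeq2), beside 15.1% of 11819 such genes. Between liver and muscle 5 of 7 differed, beside 19.3% of 11105, and between adipose tissue and muscle 5 of 8, beside 14% of 12020. Over all 15572 genes in the fit, which include those low in 1 of the tissues, the shares were 15.6%, 17.5% and 14.7%. All of these differences with muscle that passed had the same sign, with the change in muscle below that in the other tissue. Muscle also kept more *Mlx* transcript in the paper's measurements, and the part of this was not tested.

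**Figure D5:**
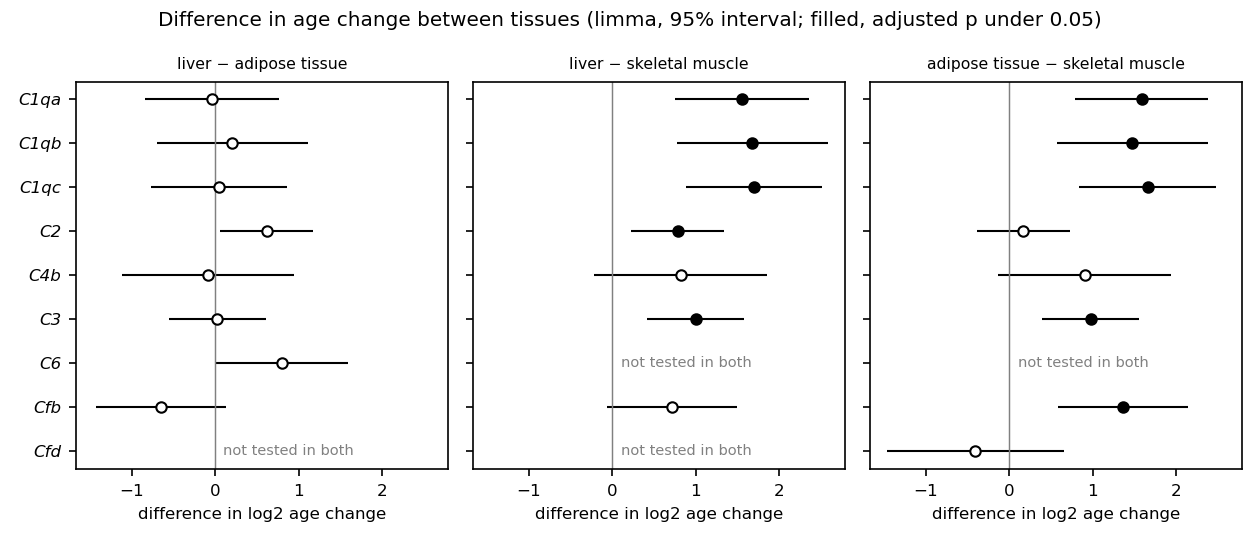
Difference of the log2 age changes of 2 tissues (x axis, limma, 95% interval) for each complement gene (y axis), filled where the adjusted p was under 0.05, with no point for a gene too low to be tested with age in 1 of the tissues. The C1q genes lie between 1.47 and 1.70 in both comparisons with muscle, and no point is filled between liver and adipose tissue.

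Ages that did not overlap were found for *C1qa* and *Cfd* in adipose tissue and for *C1qc*, *C3* and *Cfd* in muscle, 2 of 9 and 3 of 8 members tested, and for none of the 8 tested in liver. Over all genes tested 17.4%, 17.3% and 19.1% did not overlap in adipose tissue, muscle and liver. The muscle calls of *C1qc*, *C3* and *Cfd* held whichever library was left out. In liver the calls of *C1qa*, *C1qb* and *C6* were lost in 6, 4 and 6 of 9 such fits, with *C1qa* and *C6* lost without X5L4299, X5L5001, X5L5238, X18L17, X18L18 or X18L19 and *C1qb* without X5L5001, X5L5238, X18L17 or X18L18, at an adjusted p of at most 0.09 by limma, and the changes stayed within 0.89 to 1.25, 1.02 to 1.43 and -0.65 to -0.45. In adipose tissue *C1qa* was lost without X5F4299, X5F5001, X18F37, X18F38, X18F39 or X18F40, *C6* without X5F4299, X5F5001, X5F5238, X18F38, X18F39 or X18F40, and *Cfd* without X5F4299, X5F5001, X18F37 or X18F39, at an adjusted p of at most 0.105 (limma), with changes of 0.81 to 1.21, -1.60 to -1.14 and -1.89 to -1.41.

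The other genes of the system, 42 in a list by role, were counted in the same fits. In liver 5 of 37 tested rose and 0 fell (limma, and 0 also at an unadjusted p under 0.05, with edgeR and with DESeq2), in adipose tissue 4 of 24 rose and 1 fell, and in muscle 1 of 21 rose and 7 fell. Over all genes 10%, 9.75% and 9.13% rose and 9.79%, 9.35% and 10.1% fell in the 3 tissues. The median log2 change of the list was 0.21, 0.12 and -0.27. The filter on low values passed 3 of 6 initiation proteases in adipose tissue and in muscle, 2 and 1 of 6 lectins, and 2 of 8 other components.

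The largest rises in liver and adipose tissue were of receptors. *Itgb2*, the β2 chain of complement receptors 3 and 4, averaged 23.6 at 20 months and 7.8 at 5 months in liver (1.40 ± 0.33, limma, adjusted p = 0.0186), in adipose tissue 342 and 61.4 (2.14 ± 0.59, adjusted p = 0.0375) and 3.13 and 6.56 in muscle (-0.87 ± 0.27, adjusted p = 0.0425). *Itgax*, the α chain of receptor 4, rose by 1.79 in liver and by 2.26 in adipose tissue (adjusted p = 0.0206 and 0.0357). Both are also leukocyte genes, and they moved in the direction of the C1q genes in each tissue where they passed. *C5ar2*, a C5a receptor, rose by 0.82 in adipose tissue (adjusted p = 0.0223).

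The components and regulators that passed were mostly lower in muscle. *C7*, which follows C6 in the terminal complex, averaged 232 at 5 months and 62.2 at 20 months in adipose tissue (-2.17 ± 0.46, limma, adjusted p = 0.0205) and 20.1 and 9.19 in muscle (-1.09 ± 0.31, adjusted p = 0.0331). *Clu*, an inhibitor in plasma, fell in muscle by 1.03 (adjusted p = 0.0213), and *Cpn1*, a subunit of the anaphylatoxin inactivator carboxypeptidase N, rose there by 1.07 (adjusted p = 0.00703). In liver *Mbl2*, a lectin that starts a pathway of its own, rose by 0.88 (adjusted p = 0.0391) and *C1s1*, a protease of the C1 complex, by 0.52 (adjusted p = 0.0204). *Cd59a*, the membrane inhibitor of the terminal complex, rose by 0.59 in liver and by 1.13 in adipose tissue (adjusted p = 0.0185 and 0.0445).

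Likeness was measured as Pearson's r of the deviations from group means over the 27 samples, among 11218 genes with a mean of at least 5. Apart from each other, the genes most like *C1qa*, *C1qb* and *C1qc* were *Dok2* (0.91), *Ncf1* (0.91) and *Clec4a3* (0.90). *Cfb* was closest to *Hp* (0.92), haptoglobin, then to *Wisp2* (0.90) and *Sparc* (0.86). *C3* was closest to *Inf2* (0.85), *C1ra* (0.81) and *Med26* (0.75), and *C2* to *Ace* (0.86), *Tmem176b* (0.86) and *Src* (0.83). For *C4b* the closest were *Col18a1* (0.80), *Lgals9* (0.79) and *Rrbp1* (0.77). *C6* came nearest to *Sema3c*, *Bcl9l* and *Popdc2* (0.76, 0.76 and 0.74), and *Cfd* to *Grik5*, *Isg20* and *Mmp9* (0.70, 0.69 and 0.67). The points of each r share libraries and depth.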

How the data were processed

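Total RNA was sequenced in 27 tissue samples of *Mlx*KO mice. The authors mapped and counted reads in CLC Genomics Workbench 23.0, named with builds GRCm38.p6 and mm10 in the submitters' processing notes, and deposited 1 value per gene and sample, a scaled signal: CPM divided by a factor of each sample, with sums of 559419 to 1395315. The design had assumed CPM. Its tests were kept, on log2(value + 1). Dividing each value by that of 1 read gave whole reads for 100% of values (within 0.1), 14384695 to 25673919 per sample. These reads were used for edgeR 4.0.16 and DESeq2 1.42.0, which were alternatives. A value of 3 reads limits what a 0 can show, and this covers counting error only.

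Ages were compared within a tissue, and tissues and differences of age changes over all samples, with limma 3.58.1 in R 4.3.3 (variance trend, Benjamini-Hochberg over all genes reaching 1 in 4 samples or more). The scripts were tested on simulated counts. Named genes were the 9 members, *Mlx*, the 5 largest age changes past the threshold with a mean of at least 1 among 42 other complement genes in each tissue, and the 3 genes most like each member. One gene named by this rule is not reported here. Members and lists were chosen with earlier results of these data known. Mouse numbers at 5 months mark the same animal in 3 tissues, so they pair samples. The deviations of same-mouse samples correlated at -0.0169 to 0.294 (mean 0.136, 7 of 12 pairs over 0.1). Alternatives were other pseudocounts, filters, scalings and tools, sample weights, a mouse block, each sample left out and, added after seeing the data, the libraries highest in hepatocyte markers of the 4 adipose and muscle groups left out, and the 2 older adipose libraries above every younger one. Promoter windows are from RefSeq (GRCm38.p6).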

Additional observations from a re-analysis of the deposited data

Results flagged for a closer look

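Each group was searched for a sample far from the others by Dixon's test, in 54 groups of 1 gene in 1 tissue and age, of which chance flags about 1 in 20. There were 3. *C1qa* was 10.4 in muscle sample X5S4299 against 15 to 16 in the other 5-month muscles. *C1qc* was 21.4 in X5S5001 against 14.1 to 15.1 in the others. *Cfd* was 0.285 in X5L5238 and 0 in the other 5-month livers.

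A difference of the age change between 2 tissues passed the limma test for 12 of 27 gene and tissue pairs. For *Cfd* it was 2.84 between liver and adipose tissue and 2.43 between liver and muscle. These values rest on liver levels too low to be tested with age, so no difference is drawn from them. Between liver and muscle it was 1.55 for *C1qa*, 1.68 for *C1qb*, 1.70 for *C1qc*, 0.78 for *C2* and 0.999 for *C3*. Between adipose tissue and muscle it was 1.58 for *C1qa*, 1.47 for *C1qb*, 1.66 for *C1qc*, 0.97 for *C3* and 1.36 for *Cfb*. The comparisons with muscle share its samples. The *C2* difference was lost with no filter on low values, under rescaling without the 20 most abundant genes and without the variance trend (adjusted p up to 0.078), and that of *C3* between adipose tissue and muscle with no filter and with edgeR (adjusted p up to 0.0752). Leaving out 1 library ended the *C2* call in 13 of 18 fits (X5L5001, X5L5238, X5L5239, X18L17, X18L18, X18L74, X5S5001, X5S5238, X5S5239, X18S56, X18S57, X18S58 or X18S60, adjusted p up to 0.118), and it was also lost without the 4 libraries highest in hepatocyte markers (0.0722). Between adipose tissue and muscle it ended that of *C1qb* without X5F5001, X18F38, X5S5001, X5S5239 or X18S60 (up to 0.0669), that of *C3* without X5F5239 or X5S5001 (up to 0.062) and that of *Cfb* without X5F5001 (0.0521).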

How the results depend on the processing

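The number of members called with age depended on the settings. In liver it was 3, with 1 under no filter on low values, 5 with sample weights and 0 to 5 when each library was left out. In adipose tissue it was 3, with 0 under no filter, 8 with sample weights, 6 with DESeq2, 6 with all 27 samples in one fit, 5 without X5F5238 and X18F36, 1 without X18F36 and X18F38 (*Cfd*) and 0 to 6 when each library was left out. In muscle it was 3, and 3 to 5 with each library left out. The difference between liver and adipose tissue had 1, *Cfd*, which was too low in liver to be tested with age, 4 with sample weights and 1 to 2 with each library left out, and that between adipose tissue and muscle 5 and 3 to 5. Over all genes the calls were 2508 in liver (4454 with sample weights), 2674 in adipose tissue (1525 under no filter, 8456 with sample weights, 4348 with DESeq2, 5270 in one fit) and 2451 in muscle (1507 under no filter), and 959 to 3557, 397 to 3748 and 1158 to 3796 with each library left out. Among signs, *C2* between liver and adipose tissue at 5 months was -0.68 when rescaled without the 20 most abundant genes. For the difference in age change between liver and adipose tissue, *C1qa* was 0.192 when rescaled, 0.0734 with sample weights, 0.0492 with edgeR and 0.0190 with DESeq2, *C4b* 0.152, 0.0730 with edgeR and 0.0465 with DESeq2, and *C1qb*, *C1qc* and *C3* were -0.12, -0.25 and -0.16 without the 4 libraries highest in hepatocyte markers, and *C1qa* and *C3* were 0.0113 and -0.000797 without X18F36 and X18F38. With each library left out, *C1qa* ranged from -0.22 to 0.23, *C1qc* from -0.11 to 0.33, *C4b* from -0.30 to 0.13 and *C3* from -0.13 to 0.22. *C6* between adipose tissue and muscle was 0.44 with a pseudocount of 0.1, 0.89 with edgeR and 0.94 with DESeq2. The age change of *C4b* ranged from -0.0788 to 0.30 in liver and from -0.0184 to 0.39 in adipose tissue with each library left out. None of these passed except *C2*. The cause was not tested. The mouse block (consensus correlation 0.101) gave 8, 9 and 9 members between tissues at 5 months and 1, 6 and 5 for differences in age change, as without it, and changed no member's call. Depth limits *Cfd* in liver and *C6* in muscle.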
